A study of Mus musculus with 12 samples.

Results

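Interferon-stimulated genes are genes whose transcription rises when a cell senses an interferon, and 30 of them were followed here across CD8+ T cells taken from tumours. They were chosen by gene symbol from a list of 30 names. All 30 were found among the 56941 genes of the count table, and all 30 passed the filter on low counts that left 18657 genes. The study sorted live CD45.2+ CD8+ cells that carried or lacked asGM1, the glycolipid asialo-GM1, on their surface. The mice were wild type C57BL/6J and bore tumours of Panc02, a pancreatic cancer line of the mouse. There were 4 groups with 3 libraries each, 12 in all: anti-PD-1 asGM1-positive, anti-PD-1 asGM1-negative, isotype asGM1-positive and isotype asGM1-negative. Anti-PD-1 is an antibody that blocks the inhibitory receptor PD-1, and the isotype antibody is its control. The labels name no T cell receptor gate, give no age and do not say whether replicates came from separate mice, so the error behind each p-value is the spread among libraries and may be technical.

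Type I interferons, made by infected or activated cells, bind the receptor IFNAR1/IFNAR2, which leads a complex that holds STAT2 and IRF9 to the interferon-stimulated response element (ISRE) in promoters. Interferon gamma, which CD8+ T cells themselves secrete, signals through IFNGR1/IFNGR2 to promoters that carry the gamma-activated site (GAS), and it raises IRF1. The target genes overlap: IFIT, OAS and MX genes are mainly known as type I targets, and the immunity-related and guanylate-binding GTPases as interferon gamma targets.

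Libraries held 58.1 to 73.2 M counts (M for mega), so 3 counts were worth 0.0406 to 0.0524 CPM, the unit of counts after scaling for library size. Cd8a lay between 1590 and 2581 CPM in the 12 libraries, and all 9 CD8+ T cell markers were present. Other cells' genes were present too. The summed level of 16 plasmacytoid dendritic cell markers was 178 to 201 CPM in anti-PD-1 asGM1-positive and 302 to 350 CPM in anti-PD-1 asGM1-negative libraries, and 118 to 128 CPM in isotype asGM1-positive and 374 to 491 CPM in isotype asGM1-negative libraries. Siglech, a lectin that defines these cells, had 0.0719, 0.489 and 0 CPM in anti-PD-1 asGM1-positive against 31.5, 34.8 and 25.1 CPM in anti-PD-1 asGM1-negative libraries. A list of 8 CD4+ and regulatory T cell markers summed to 1651 to 2007 CPM in anti-PD-1 asGM1-positive and 2125 to 2341 CPM in anti-PD-1 asGM1-negative libraries. Under isotype it summed to 1001 to 1473 CPM in asGM1-positive and 1418 to 1805 CPM in asGM1-negative libraries. The list was Cd4, Foxp3, Il2ra, Ikzf2, Ctla4, Tnfrsf4, Cd40lg and Tnfrsf18. Whether the CD8+ T cells themselves held part of this RNA was not tested. Both libraries of anti-PD-1 replicate 2 stood apart in the heat shock gene Hspa1a (146 CPM in asGM1-positive and 151 CPM in asGM1-negative cells), while their fellow anti-PD-1 libraries held 22.5 to 32.6 CPM.

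The promoter sequences of 5 genes are shown: Ifit3, Ifit3b and Igtp because differences between populations described further on turn on them, Gbp3 because it was higher under anti-PD-1 in both populations, and Isg15 for its run of overlapping matches. Sequences are RefSeq promoter windows on build GRCm38.p6, 250 bases before to 50 after the annotated start, 5′ to 3′ on the gene's strand. Capitals mark ISRE matches (GAAA, any 2 bases, GAAA, on either strand, so also TTTC, any 2 bases, TTTC; matches may overlap) and GAS matches (TTC, any 3 bases, GAA).
Ifit3, chr19:34583279-34583578, plus strand: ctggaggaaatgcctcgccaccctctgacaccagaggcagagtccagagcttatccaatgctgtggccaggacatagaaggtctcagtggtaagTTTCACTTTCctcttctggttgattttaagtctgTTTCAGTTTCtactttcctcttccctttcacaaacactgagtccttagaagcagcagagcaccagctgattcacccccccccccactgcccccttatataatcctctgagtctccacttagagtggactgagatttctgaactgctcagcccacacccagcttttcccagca
Ifit3b, chr19:34607707-34608006, plus strand: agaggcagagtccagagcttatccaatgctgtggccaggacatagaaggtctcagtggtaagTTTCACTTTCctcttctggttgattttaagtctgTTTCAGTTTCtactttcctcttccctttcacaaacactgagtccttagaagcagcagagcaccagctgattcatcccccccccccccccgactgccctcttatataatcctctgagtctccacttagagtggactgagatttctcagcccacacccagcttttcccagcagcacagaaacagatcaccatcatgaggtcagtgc
Igtp, chr11:58199306-58199605, plus strand: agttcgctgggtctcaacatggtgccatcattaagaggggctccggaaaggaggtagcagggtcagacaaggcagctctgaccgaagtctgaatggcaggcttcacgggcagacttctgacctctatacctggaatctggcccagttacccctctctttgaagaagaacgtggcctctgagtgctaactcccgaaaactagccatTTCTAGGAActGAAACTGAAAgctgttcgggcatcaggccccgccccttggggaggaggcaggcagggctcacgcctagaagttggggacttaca
Isg15, chr4:156200769-156201068, minus strand: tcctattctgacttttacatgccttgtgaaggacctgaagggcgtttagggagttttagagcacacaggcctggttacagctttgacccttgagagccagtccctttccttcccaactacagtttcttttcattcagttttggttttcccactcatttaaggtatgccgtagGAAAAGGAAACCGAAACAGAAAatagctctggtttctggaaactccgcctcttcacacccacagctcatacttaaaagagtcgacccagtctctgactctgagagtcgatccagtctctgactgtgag
Gbp3, chr3:142559794-142560093, plus strand: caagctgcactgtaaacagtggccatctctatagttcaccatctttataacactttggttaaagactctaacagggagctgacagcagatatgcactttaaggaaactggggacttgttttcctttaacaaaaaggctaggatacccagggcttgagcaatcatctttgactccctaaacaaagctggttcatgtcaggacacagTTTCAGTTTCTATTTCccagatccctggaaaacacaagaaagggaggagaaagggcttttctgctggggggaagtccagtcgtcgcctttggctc

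Ifit3 and Ifit3b, neighbours on chromosome 19, carried 2 ISRE matches each with the same letters. Their windows were identical at 259 of 260 aligned bases (99.62%), gaps not counted. Igtp had a GAS match at -45 to -37 and an ISRE match at -34 to -25 from the start. Isg15 had 3 overlapping ISRE matches between -78 and -57, and Gbp3 had 2 between -45 and -30.

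Of the 30 genes, 22 had a window, with 28 windows in all, since some genes have several starts. An ISRE match lay in 14 of these 28 windows, and in windows of 13 of the 22 genes (59.09%), against 3.44% of all 32851 promoter windows and 3.99% of all 27025 genes. GAS matches lay in 5 windows (17.86%), against 8.30% of all. No window of Irf7, Irf9, Oasl1, Oasl2, Cmpk2, Ifi47 or Ifi44 held either motif in these letters, which says nothing of sites elsewhere. The remaining 8 genes, Oas2, Mx1, Mx2, Usp18, Rtp4, Dhx58, Zbp1 and Parp14, had none to search.

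**Figure D1:**
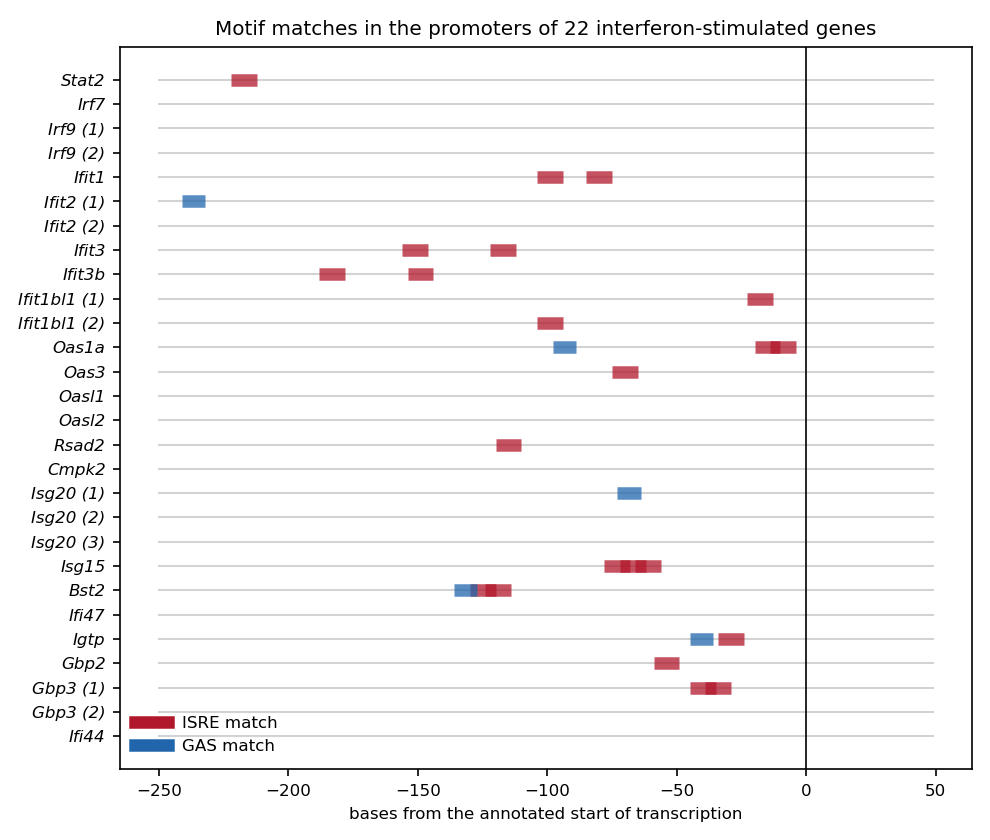
Motif matches in the RefSeq promoter windows of 22 interferon-stimulated genes, by distance in bases from the annotated start; grey lines are windows, red blocks ISRE matches and blue blocks GAS matches, and a number in brackets marks a gene's first, second or further start. Matches to the ISRE lie in 14 of 28 windows, and those of Ifit3 and Ifit3b have the same spacing.

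The first comparison asked whether the populations differ under PD-1 blockade. Under anti-PD-1, 29 of 30 genes had a lower fitted level in asGM1-positive than in asGM1-negative cells, Gbp3 being the exception. The median log2 difference was -0.37, against -0.01 over all genes tested. In 26 genes asGM1-positive cells were lower in all 3 same-numbered pairs of libraries, which 19.8% of all genes were, and 1 gene, Gbp3, was higher in all 3 (19.5% of all). In 15 genes the 3 asGM1-positive libraries lay below the 3 asGM1-negative ones without overlap (9.51% of all). Markers of other cell types were present in these libraries, as given above, and in bulk RNA fewer cells of a type and less RNA per cell cannot be told apart.

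No single gene of the 30 passed at an adjusted p under 0.05 in edgeR's quasi-likelihood test without pairing (1.58% of all genes passed), and 0 were higher and 8 lower at an unadjusted p under 0.05 (6.14% and 5.20% of all genes). DESeq2 called 3 and limma voom 1, all lower. The shares of all genes above are edgeR's, so these 2 counts cannot be set against them. Within a treatment, same-numbered libraries deviated together over all genes, so the pair was also fitted as a block. Over the 30 genes alone, deviations correlated at 0.571, 0.145 and 0.113 in anti-PD-1 pairs 1 to 3. In isotype pairs 1 to 3 these correlations were 0.898, 0.583 and 0.877. With the block 12 genes were lower and 0 higher (2.02% and 2.75% of all genes). Without anti-PD-1 pair 1 or pair 2, the block called 4 and 5. The shares of all genes called by these runs are not given here, so the drop cannot be read as particular to these genes.

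**Figure D2:**
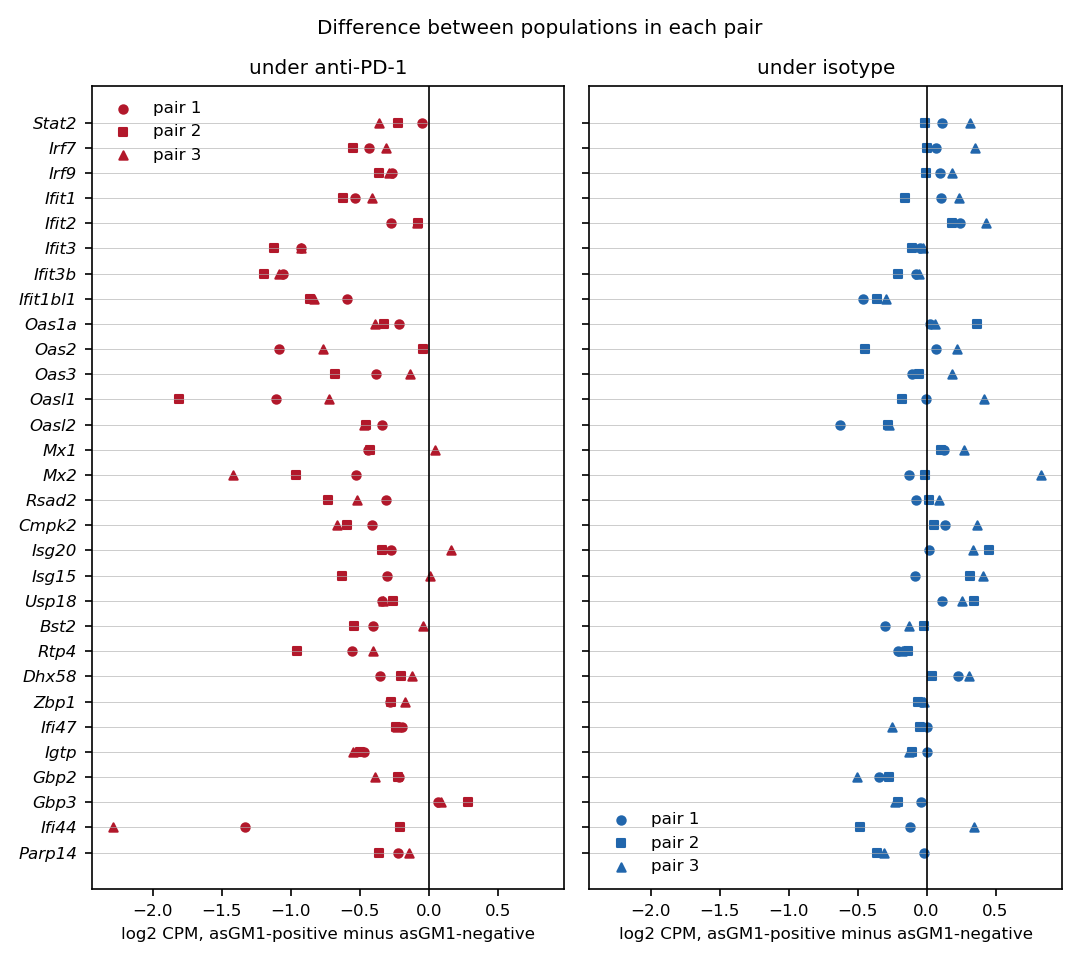
Difference in log2 CPM between asGM1-positive and asGM1-negative cells in each same-numbered pair for the 30 genes, under anti-PD-1 (left, red) and isotype (right, blue); symbols are pairs. Under anti-PD-1, 26 genes lie left of 0 in all 3 pairs, and under isotype 10 do.

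Among the IFIT genes, whose proteins bind viral RNA or associated factors, Ifit3 had 113, 119 and 96.5 CPM in anti-PD-1 asGM1-positive libraries (replicates 1 to 3), against 215, 259 and 184 CPM in asGM1-negative ones. Its close relative Ifit3b had 35.3, 38.4 and 27.7 CPM, against 73.5, 87.7 and 58.9 CPM. Neither gene's groups overlapped. The log2 difference was -0.99 ± 0.066 for Ifit3 (SE, edgeR with the pair block, adjusted p = 0.00109) and -1.11 ± 0.073 for Ifit3b (adjusted p = 0.00109). Without the block their adjusted p was 0.306 and 0.236. The genes are such close relatives that reads may have been assigned to either, and the values were not taken as independent.

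Ifit1bl1, a further IFIT family gene of the mouse, had 38.5, 43.5 and 40.8 CPM in asGM1-positive and 58.1, 79.1 and 72.4 CPM in asGM1-negative libraries under anti-PD-1. These groups did not overlap either (-0.76 ± 0.085 with the block, adjusted p = 0.00262, and 0.282 without it). Ifit1 had 134, 119 and 97.5 CPM, against 194, 183 and 129 CPM in asGM1-negative libraries, and its groups overlapped. It was lower with the block (-0.52 ± 0.086, adjusted p = 0.0135). Ifit2 did not pass (59.1, 50.3 and 49.8 CPM, against 71.4, 53.2 and 52.9 CPM in asGM1-negative libraries).

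Igtp, an immunity-related GTPase that acts on pathogen vacuoles and is mainly known as an interferon gamma target, had 312, 319 and 294 CPM in asGM1-positive and 433, 449 and 431 CPM in asGM1-negative libraries under anti-PD-1. The groups lay far apart, and replicates differed little. The log2 difference was -0.51 ± 0.057 with the block (adjusted p = 0.00279) and -0.51 ± 0.11 without it (adjusted p = 0.0516). Its relative Ifi47 had 291, 287 and 279 CPM in asGM1-positive, against 332, 339 and 326 CPM in asGM1-negative libraries, also without overlap, and did not pass in either fit.

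Gbp2 and Gbp3 encode guanylate-binding proteins, which attack the membranes of intracellular pathogens. Gbp2 had 98.6, 105 and 91.6 CPM in anti-PD-1 asGM1-positive, against 115, 123 and 120 CPM in anti-PD-1 asGM1-negative libraries. Gbp3 had 156, 153 and 142 CPM, against 149, 125 and 133 CPM, the one gene of the 30 with a higher fitted level (log2 difference 0.14 ± 0.16, adjusted p = 0.872). The groups of Gbp2 did not overlap and those of Gbp3 did, and neither passed in this comparison.

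Of the transcription factors, Irf7, which amplifies type I interferon production, had 204, 201 and 217 CPM in asGM1-positive, against 275, 294 and 269 CPM in asGM1-negative libraries under anti-PD-1. Irf9, the DNA-binding partner of STAT2, had 157, 148 and 157 CPM, against 189, 190 and 192 CPM. Both were without overlap and lower with the block (Irf7 -0.43 ± 0.083, adjusted p = 0.0253; Irf9 -0.30 ± 0.063, adjusted p = 0.0340). Stat2 overlapped and did not pass.

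The remaining genes lower with the block under anti-PD-1 were Rtp4, a receptor chaperone (-0.64 ± 0.10, adjusted p = 0.0132), Cmpk2, a mitochondrial nucleotide kinase (-0.56 ± 0.096, adjusted p = 0.0157), its genomic neighbour Rsad2, which encodes the antiviral enzyme viperin (-0.52 ± 0.099, adjusted p = 0.0245), Oasl1 (-1.22 ± 0.23, adjusted p = 0.0237) and Usp18, which removes ISG15 from proteins and dampens IFNAR signalling (-0.31 ± 0.069, adjusted p = 0.0429). Ifit3, Ifit3b, Ifit1bl1 and Igtp kept their call without any 1 of the 6 pairs. Rtp4 lost it without anti-PD-1 pair 1 (adjusted p = 0.0792), and Ifit1, Irf7 and Oasl1 lost it without anti-PD-1 pair 1 (0.111, 0.165 and 0.126) or 2 (0.0757, 0.122 and 0.101). Cmpk2 (0.0677 to 0.0876) and Rsad2 (0.0653 to 0.133) lost it without any 1 of the 3 anti-PD-1 pairs, Irf9 without any of these or isotype pair 1 or 3 (0.0532 to 0.196), and Usp18 without any 1 of the 6 pairs (0.0534 to 0.281).

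Under isotype the 30 genes showed no common direction between populations. Fitted levels were higher in asGM1-positive cells for 14 genes and lower for 16, the median log2 difference was -0.02, and no gene's groups were without overlap (7.94% and 8.40% of all genes were, higher and lower). In all 3 pairs, 8 genes were higher and 10 lower (20.2% and 20.4% of all genes). None passed in edgeR, where 1.31% of all genes did, nor in DESeq2 or limma voom, and 0 were higher and 1 lower at an unadjusted p under 0.05 (5.86% and 6.59% of all genes). Ifit3 had 334, 177 and 121 CPM in isotype asGM1-positive and 345, 191 and 123 CPM in isotype asGM1-negative libraries. Gbp2 alone was lower with the block (2.11% of all genes were), at 83.4, 67.3 and 70.8 CPM in asGM1-positive against 106, 81.4 and 101 CPM in asGM1-negative libraries (-0.38 ± 0.074, adjusted p = 0.0334). That call ended without any 1 isotype pair or anti-PD-1 pair 1 (0.0827 to 0.191).

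The spread within a group differed by treatment. The mean log2 CPM over the 30 genes was 5.47, 5.36 and 5.31 in anti-PD-1 asGM1-positive and 5.93, 5.88 and 5.76 in anti-PD-1 asGM1-negative libraries. In isotype libraries it was 6.48, 5.87 and 5.55 in asGM1-positive and 6.52, 5.93 and 5.45 in asGM1-negative cells. The SD was 0.0858 in asGM1-positive and 0.0865 in asGM1-negative cells under anti-PD-1, and 0.469 in asGM1-positive and 0.539 in asGM1-negative cells under isotype (n = 3 each). Replicate 1 was the highest and replicate 3 the lowest in both isotype populations, so the spread followed the pair. Leaving out 1 library of isotype pair 1 broke that balance: the isotype median became 0.36 without the asGM1-negative and -0.27 without the asGM1-positive library.

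**Figure D3:**
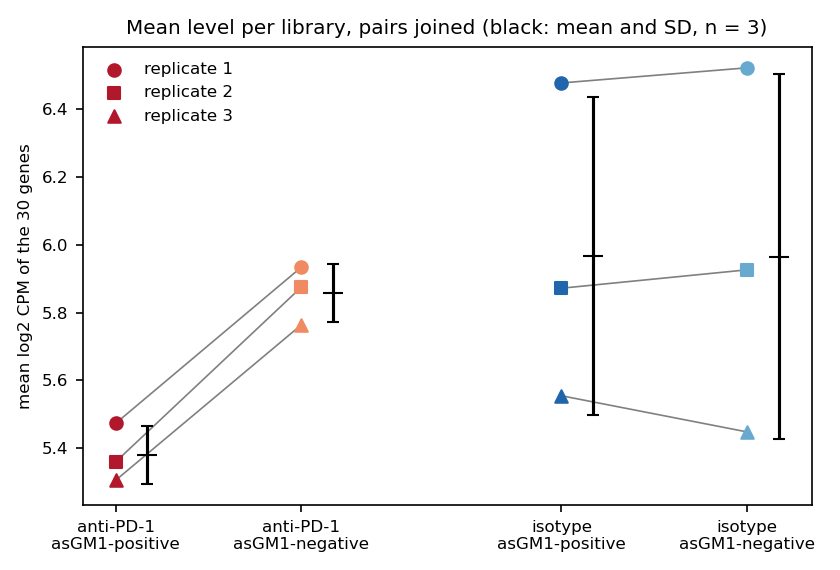
Mean log2 CPM of the 30 genes in each library, with same-numbered libraries of a treatment joined; symbols are replicate numbers and black bars the mean and SD of 3 libraries. The 3 anti-PD-1 asGM1-positive libraries (5.31 to 5.47) lie below the 3 anti-PD-1 asGM1-negative ones (5.76 to 5.93), while isotype libraries spread from 5.45 to 6.52.

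Whether the population difference itself depended on treatment was tested by the interaction. Its fitted value was negative for 27 of 30 genes, with a median of -0.43 against 0.01 over all genes tested. That median was -0.78 when isotype asGM1-negative replicate 1 was left out, -0.20 when isotype asGM1-negative replicate 3 was, and -0.18 when isotype asGM1-positive replicate 1 was. None of the 30, and 0 of all genes (0%), passed in edgeR, and at an unadjusted p under 0.05 there were 0 of the 30 positive and 3 negative (3.85% and 3.27% of all genes). DESeq2 and limma voom called 0 of the 30. With the pair block 2 were negative (0.0107% of all genes): Ifit3 (-0.94 ± 0.092, adjusted p = 0.0387) and Ifit3b (-0.996 ± 0.10, adjusted p = 0.0387). Both calls ended without any 1 of the 6 pairs (0.0611 to 0.267). Averaged over treatments without the block, Gbp2 alone was lower in asGM1-positive cells (-0.33 ± 0.081, adjusted p = 0.0492, where 2.04% of all genes were lower), a call that ended without any 1 library (0.0731 to 0.123) other than isotype asGM1-negative replicate 2 or isotype asGM1-positive replicate 1. With the block 7 genes were lower (4.16% of all genes), namely Ifit3, Ifit3b, Ifit1bl1, Igtp, Gbp2, Rtp4 and Oasl2. Rtp4 lost this call without isotype pair 1 (adjusted p = 0.0501) and Oasl2 without any 1 of the 6 pairs (0.0538 to 0.109).

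The second comparison asked how PD-1 blockade changed the genes within each population. In asGM1-positive cells 27 of 30 fitted levels were lower under anti-PD-1 than under isotype, with a median log2 change of -0.61 against -0.01 over all genes. In 13 genes the anti-PD-1 libraries lay below the isotype ones without overlap (12.2% of all), and in 2 above (11.8% of all). In edgeR 3 genes fell and 1 rose (3.01% and 3.72% of all genes). Without the isotype replicate 1 pair the median was -0.32. DESeq2 called 7 lower and 2 higher. The shares of all genes above are edgeR's, so the DESeq2 counts cannot be set against them.

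**Figure D4:**
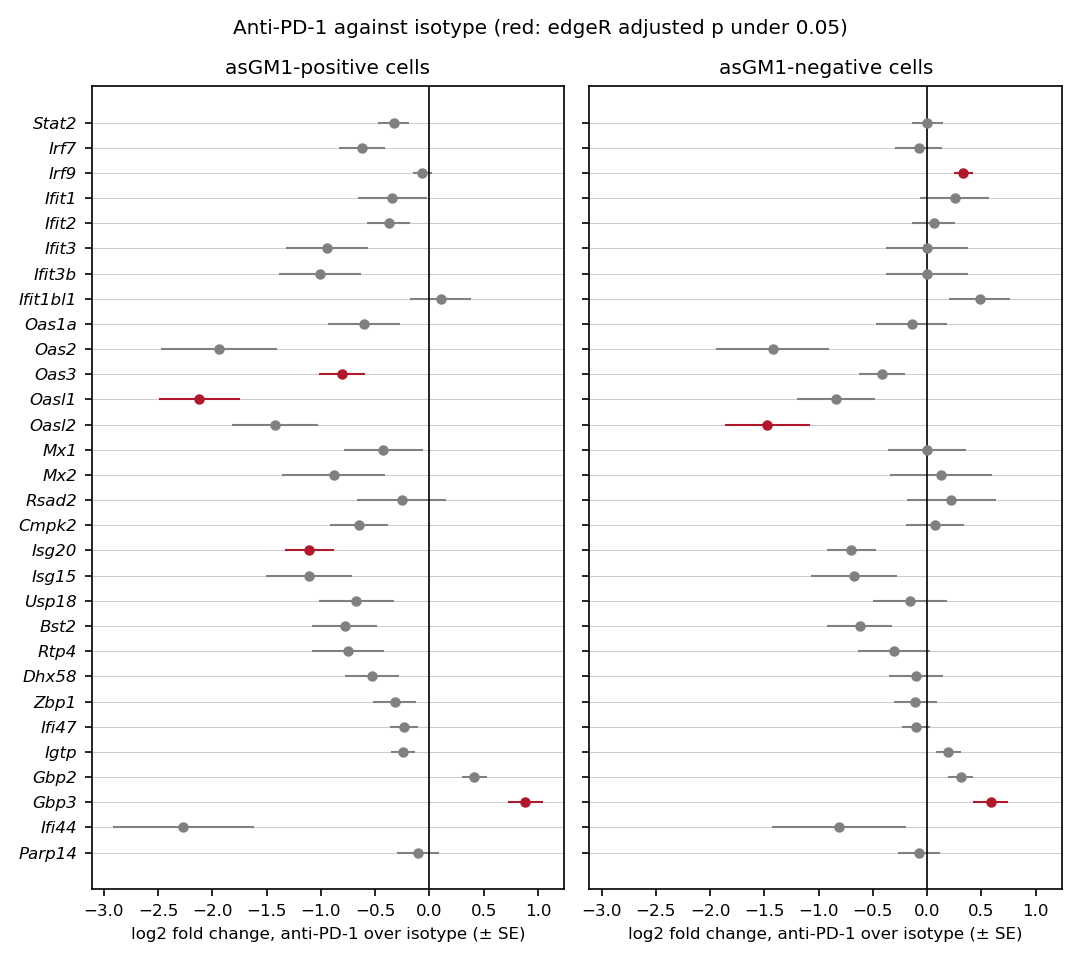
Log2 fold change of anti-PD-1 over isotype for the 30 genes in asGM1-positive (left) and asGM1-negative cells (right), with standard errors from edgeR; red points passed at an adjusted p under 0.05. In asGM1-positive cells 27 points lie below 0, and Gbp3 is higher in both panels.

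The OAS genes, which encode sensors of double-stranded RNA and their relatives, held 3 of the 4 most negative fitted changes (Oasl1, Oas2 and Oasl2), the other being Ifi44, a gene of unsettled function. Oasl1 had 2.53, 2.04 and 2.58 CPM in anti-PD-1 asGM1-positive, against 14.8, 9.12 and 7.22 CPM in isotype asGM1-positive libraries. Its log2 change was -2.12 ± 0.37 (adjusted p = 0.00594), and the call held without any 1 library. Oas3 had 33.5, 28.3 and 32.7 CPM, against 69.4, 49.5 and 46.3 CPM (-0.81 ± 0.21, adjusted p = 0.0440), a call that ended without any 1 of 9 of the 12 libraries (0.0583 to 0.158), the 3 exceptions being isotype libraries: replicate 3 of either population and asGM1-negative replicate 1. Oas2 (0.705, 1.59 and 1.02 CPM, against 7.36, 3.18 and 2.17 CPM in isotype) and Oasl2 (6.27, 5.40 and 4.49 CPM, against 21.7, 12.5 and 9.19 CPM in isotype) did not overlap, at adjusted p = 0.0511 and 0.0532.

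Isg20, an interferon-induced exonuclease, had 144, 150 and 167 CPM in anti-PD-1 asGM1-positive, against 367, 387 and 237 CPM in isotype asGM1-positive libraries. The groups did not overlap, and it fell by 1.11 ± 0.23 (adjusted p = 0.0144); without isotype asGM1-positive replicate 2 or anti-PD-1 asGM1-positive replicate 1 or 2 it did not pass (0.0523, 0.0672 and 0.0582). Gbp3 went the other way, at 156, 153 and 142 CPM under anti-PD-1, against 94.2, 62.4 and 87.4 CPM under isotype (0.88 ± 0.16, adjusted p = 0.00734), and passed without any 1 library. Isg15, the ubiquitin-like modifier, had 33.4, 28.0 and 32.9 CPM, against 99.6, 63.9 and 40.2 CPM in isotype, without overlap, and did not pass (adjusted p = 0.130).

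In asGM1-negative cells the median log2 change was -0.08, with 2 genes higher and 1 lower (4.11% and 4.45% of all genes). Irf9 had 189, 190 and 192 CPM under anti-PD-1, against 163, 154 and 136 CPM under isotype (0.33 ± 0.088, adjusted p = 0.0380). Gbp3 had 149, 125 and 133 CPM, against 96.9, 71.9 and 102 CPM (0.59 ± 0.16, adjusted p = 0.0436), and Oasl2 had 7.93, 7.40 and 6.24 CPM, against 33.6, 15.1 and 11.1 CPM (-1.47 ± 0.39, adjusted p = 0.0400). These groups did not overlap. Each of the 3 calls ended without any 1 of 8 of the 12 libraries, not the same 8 for each gene (0.0506 to 0.178), and the median was 0.19 without the isotype replicate 1 pair and -0.29 without the isotype asGM1-negative library of replicate 3.

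Averaged over the populations, 8 genes were lower and 2 higher under anti-PD-1 (9.02% and 9.12% of all genes). This fit took all 12 libraries as independent, although same-numbered libraries of a treatment deviated together, so its p-values may be too small. The pair lies within a treatment, so the pair block gave no test of this comparison. Oasl1 (-1.48 ± 0.26, adjusted p = 0.00226), Isg20 (-0.90 ± 0.16, 0.00265), Oasl2 (-1.45 ± 0.28, 0.00423), Oas2 (-1.68 ± 0.37, 0.00909), Oas3 (-0.61 ± 0.15, 0.0156), Gbp3 (0.73 ± 0.11, 0.00115) and Gbp2 (0.36 ± 0.081, 0.00956) passed without any 1 library. Ifi44 (-1.54 ± 0.45, adjusted p = 0.0330), Bst2, which encodes the virus tether tetherin (-0.70 ± 0.21, 0.0383), and Isg15 (-0.89 ± 0.28, 0.0455) lost their call without any 1 of 7, 10 and 10 libraries (0.0527 to 0.109). Leaving out 1 library kept its same-numbered partner in the fit. Without the anti-PD-1 replicate 2 pair, 4 genes were lower and 1 higher. Not all of the genes that passed without any 1 library thus passed without that pair. The share of all genes called by the run without the pair is not given here. Other values moved with treatment: the summed level of 5 tumour epithelium markers was 15.6 to 26.8 CPM in anti-PD-1 and 88.5 to 107 CPM in isotype asGM1-positive libraries, and 23.9 to 31.1 CPM in anti-PD-1 and 60.1 to 87.8 CPM in isotype asGM1-negative libraries. The 8 heat shock genes summed to 2052 to 2612 CPM under anti-PD-1 and 2971 to 3868 CPM under isotype. The part of either in these results was not tested.

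The genes without a call in any comparison were Stat2, Ifit2, Oas1a, Mx1, Mx2, Dhx58, Zbp1, Ifi47 and Parp14, counting both fits. Mx1, a dynamin-like antiviral GTPase, had 71.2, 66.7 and 77.6 CPM in anti-PD-1 asGM1-positive and 96.6, 89.4 and 75.1 CPM in anti-PD-1 asGM1-negative libraries. Isotype libraries had 142, 93.9 and 53.2 CPM in asGM1-positive and 130, 87.2 and 44.1 CPM in asGM1-negative cells, so that the isotype range enclosed that of anti-PD-1. In all 9 genes, among them the nucleic acid sensors Dhx58 and Zbp1, replicate 1 was the highest isotype library of its population, as the plot of the 30 genes by library shows.

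**Figure D5:**
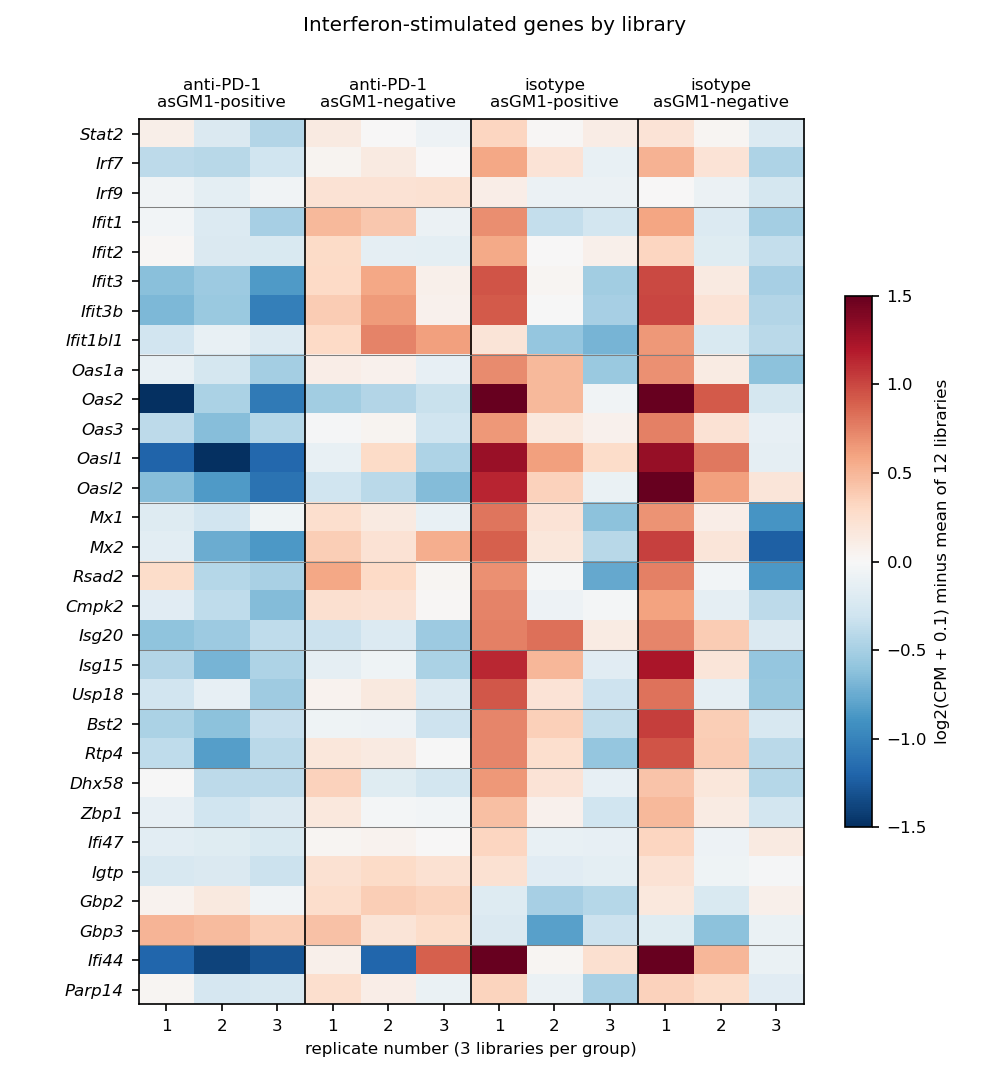
Level of each of the 30 genes in each library, as log2(CPM + 0.1) minus the gene's mean over the 12 libraries, with genes in rows grouped by role and libraries in columns by group and replicate number. Both isotype replicate 1 columns are high for most genes, and the anti-PD-1 asGM1-positive columns are low for most genes, with Gbp3 and Gbp2 among the exceptions.

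Upstream of these genes, of 12 interferon ligand genes only Ifng passed the filter on low counts. Ifnb1, which encodes interferon beta, had at most 5 counts in a library. Ifng had 405, 437 and 423 CPM in anti-PD-1 asGM1-positive, against 340, 321 and 354 CPM in anti-PD-1 asGM1-negative libraries, without overlap, and did not pass (log2 difference 0.32 ± 0.16, adjusted p = 0.523, and 0.0611 with the block). Isotype libraries had 359, 240 and 254 CPM in asGM1-positive and 386, 255 and 333 CPM in asGM1-negative cells.

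Of 8 measured receptor and kinase genes, 2 rose and 0 fell under anti-PD-1 in each population. Of all genes, 3.72% rose and 3.01% fell in asGM1-positive cells, and 4.11% rose and 4.45% fell in asGM1-negative cells. The genes that rose were Ifngr1 in both, the receptor kinase gene Jak2 in asGM1-positive cells and Ifnar1 in asGM1-negative cells. Jak2, named after its values were seen, had 96.3, 120 and 90.2 CPM in anti-PD-1 against 65.4, 57.4 and 81.6 CPM in isotype asGM1-positive libraries (0.58 ± 0.14, adjusted p = 0.0281). It did not pass when replicate 1 or 2 of either of these groups was left out (0.0556 to 0.119). Ifngr1, the ligand-binding chain for interferon gamma, had 1033, 1296 and 1144 CPM in anti-PD-1 against 646, 687 and 693 CPM in isotype asGM1-positive libraries (0.78 ± 0.11, adjusted p = 0.00131), and 1192, 1340 and 1363 CPM in anti-PD-1 against 616, 755 and 698 CPM in isotype asGM1-negative libraries (0.91 ± 0.11, adjusted p = 0.000670). The call of Ifnar1, a chain of the type I receptor, in asGM1-negative cells (0.52 ± 0.12, adjusted p = 0.0223) ended when replicate 1 or 2 of its isotype libraries, or replicate 1 or 3 of its anti-PD-1 libraries, was left out (0.0529 to 0.0942), and its adjusted p in asGM1-positive cells was 0.0941. Socs1, an inhibitor of JAK kinases, fell in both populations (asGM1-positive -0.83 ± 0.11, adjusted p = 0.00101; asGM1-negative -0.55 ± 0.11, adjusted p = 0.00979, and 0.0637 without the isotype replicate 1 pair). Between populations under anti-PD-1, Ifnar2 (-0.49 ± 0.082, adjusted p = 0.0146) and Irf1 (-0.41 ± 0.054, adjusted p = 0.00552) were lower in asGM1-positive cells with the block and did not pass without it (0.146 and 0.250). Ifnar2 lost that call without anti-PD-1 pair 1 or 2 (0.104 and 0.0873) and Irf1 without pair 1 (0.0570). Ifngr2 did not pass between populations in either fit. Under anti-PD-1 its fitted change from isotype was negative in asGM1-positive (-0.87 ± 0.35, adjusted p = 0.182) and asGM1-negative cells (-0.82 ± 0.35, adjusted p = 0.193). Averaged over the populations it passed (-0.84 ± 0.25, adjusted p = 0.0366), a call that ended without any 1 of 7 of the 12 libraries (0.0502 to 0.0981). That averaged fit also took paired libraries as independent.

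A wider list of 93 other interferon-stimulated genes, of which 91 were measured, had a median log2 difference of -0.22 between asGM1-positive and asGM1-negative cells under anti-PD-1, with 82 of 91 lower. Without the block 3 were lower and 0 higher (0.654% and 0.927% of all genes), and with it 23 were lower and 1, the chemokine gene Cxcl9, higher (2.02% and 2.75% of all genes). Cxcl9 was higher under isotype too (1.85 ± 0.31, adjusted p = 0.0148 without the block and 0.00713 with it). Dropping library 1 or 3 of the isotype asGM1-negative group undid the former (0.0666 and 0.0640), while the latter survived the loss of any 1 pair. Tgtp1 and Tgtp2, near-identical T cell GTPases, were lower in asGM1-positive cells (-0.88 ± 0.16 and -0.73 ± 0.14, adjusted p = 0.0263 each), as was Cd274, which encodes PD-L1 (114, 92.3 and 86.6 CPM, against 182, 156 and 135 CPM in asGM1-negative libraries; -0.69 ± 0.14, adjusted p = 0.0309). Tgtp1 and Tgtp2 did not pass without any 1 of the 6 anti-PD-1 libraries (0.0522 to 0.122), nor Cd274 when replicate 1 or 2 of the asGM1-negative or replicate 2 or 3 of the asGM1-positive anti-PD-1 libraries was left out (0.112 to 0.134), and all 3 passed with the block without any 1 pair. Under isotype Tgtp1 and Tgtp2 were lower too (-0.59 ± 0.16 and -0.43 ± 0.14), passing only with the block (adjusted p = 0.00695 and 0.0127). Neither passed once isotype pair 3 was dropped (0.0520 and 0.0948), nor Tgtp2 once isotype pair 2 was (0.0637). Cd274 did not pass under isotype without the block (0.096 ± 0.14, adjusted p = 0.861). No gene of the 91 passed in the interaction in either fit. The macrophage marker list, which shares no gene with these lists, summed to 404 to 640 CPM in anti-PD-1 asGM1-positive and 323 to 474 CPM in asGM1-negative libraries. Under isotype the list summed to 461 to 576 CPM in asGM1-positive and 324 to 348 CPM in asGM1-negative libraries. Without the block, 7 of its 15 genes were higher and 0 lower in asGM1-positive cells under anti-PD-1 (0.927% and 0.654% of all genes). Under isotype 9 were higher and 0 lower (0.364% and 0.943% of all genes). The part of macrophage, plasmacytoid dendritic and other cells in the population differences was not tested.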

How the data were processed

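Bulk RNA sequencing of 12 libraries was used. The deposited table gives whole-number counts without normalization, 1 column per library and 1 row per gene; whether they are read tallies or were derived from StringTie coverage is not given in the sources used here, and they were tested as read counts. Per the submitters' processing notes, the tools were HISAT2 and StringTie and the build was mm39; versions, annotation, strand use and the handling of reads with several matches are not given in the sources used here, so values of closely related genes (such as Ifit3 and Ifit3b, or Tgtp1 and Tgtp2) and of overlapping genes are uncertain. Per the labels' protocols, RNA was extracted with TRIzol, and TruSeq and SMARTer low-input kits were named.

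Counts were tested with edgeR 4.0.16 (quasi-likelihood F test, R 4.3.3, limma 3.58.1) in 1 fit of 4 group means, after edgeR's default filter (18657 genes) and TMM scaling (factors 0.970 to 1.04), with Benjamini-Hochberg adjustment over all tested genes and a threshold of 0.05. Each standard error is the size of the log2 fold change over √F. CPM values use the TMM scaling, and log2 CPM a prior count of 2. The limit of 3 counts covers counting error only, while standard errors hold the spread among libraries. The common biological coefficient of variation was 0.336, with 8 residual degrees of freedom (4 with the block). After the fit, the test was tried on simulated counts that took their means and the common coefficient of variation from it. Those counts were drawn independently for each library, so they held no pairs. No 2 replicates were copies: their chi-square divided by its degrees of freedom was 45.4 to 126.

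Deviations from group means correlated at 0.121 to 0.298 across genes for the 6 same-numbered pairs within a treatment, at -0.192 to 0.0260 for other numbers, and at -0.118 to 0.0497 for equal numbers across treatments, so numbers were taken as pairs within a treatment only. Alternatives were DESeq2 1.42.0, limma voom, DESeq2 size factors, no filter, only the libraries compared, both blocks and leaving out libraries or pairs. Promoters were searched in Python.

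The 30 genes, the other lists and the rule for naming genes (per comparison up to 6 pathway genes with the smallest p past the threshold, plus fixed key genes) were chosen with earlier results of these data known. Not every gene the rule allows is printed.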

Additional observations from a re-analysis of the deposited data

Results flagged for a closer look

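The population difference of Ifit3 and Ifit3b depended on treatment in the fit with the pair as a block. The interaction was -0.94 on the log2 scale for Ifit3 and -0.996 for Ifit3b (edgeR adjusted p = 0.0387 each), with log2 differences in the 3 anti-PD-1 pairs of -1.12 to -0.93 for Ifit3 and -1.19 to -1.06 for Ifit3b, and in the 3 isotype pairs of -0.10 to -0.024 for Ifit3 and -0.21 to -0.058 for Ifit3b. Without the block the adjusted p was 0.803 and 0.783, and both calls ended without any 1 of the 6 pairs. Both genes have nearly the same promoter and reads that may be assigned to either, so they count as 1 observation.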

How the results depend on the processing

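Under anti-PD-1 the median population difference ran from -0.48 to -0.32 under every alternative run, while the number of genes called moved from 0: 12 with the pair as a block, 6 with only the libraries compared, 3 with DESeq2, 1 with limma voom, 1 with a block by replicate number across treatments, 3 without the isotype replicate 1 pair, 0 to 1 without 1 library, and 4 to 11 with the block without 1 pair. Under isotype the count was 1 with the pair as a block (0 to 1 without 1 pair), and the median ran from -0.27 to 0.36 without 1 library. The averaged population count, 1, became 7 with the pair as a block (6 to 9 without 1 pair), 3 with DESeq2, 2 without the isotype replicate 1 pair, 0 with DESeq2 size factors, with no filter or without the anti-PD-1 replicate 2 pair, and 0 to 3 without 1 library. For the interaction the block gave 2 and the block without 1 pair 0. The treatment count was 4 in asGM1-positive cells, against 9 with DESeq2, 2 without the anti-PD-1 replicate 2 pair, and 2 to 7 without 1 library. It was 3 in asGM1-negative cells, against 5 with DESeq2, 0 with no filter or without the anti-PD-1 replicate 2 pair, and 0 to 4 without 1 library. Averaged it was 10, against 5 without the anti-PD-1 replicate 2 pair and 7 to 12 without 1 library. The block by a number shared across treatments, which does not pair these libraries, left the treatment counts within 1.5 times. Leaving out isotype replicate 1 and leaving out a pair under the block were chosen after seeing the data. In this section, counts under alternative runs stand without the share of all genes called by the same run. With 3 libraries a group, the causes of these moves were not tested; counting error is largest for genes near 1 CPM, such as Oas2 and Ifi44.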
